A study of Homo sapiens with 18 samples.

Results

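The response of JNK-knockout (JNKKO) mammary acini to a forced pairing of HER2 was measured across all genes, by setting the 3 libraries of JNKKO acini given the B/B homodimerizer against the 3 libraries of JNKKO acini given ethanol. These 6 samples were taken by their titles from a series of 18, which held 6 groups of 3. The cells were MCF-10A.B2, a derivative of the human non-tumour breast epithelial line MCF-10A that expresses a chimeric receptor in which an NGFR portion is joined to the HER2 kinase. The bivalent drug binds the chimera and brings its kinase domains together without a natural ligand. All cells grew as acini, hollow spheres of epithelium, on growth factor reduced Matrigel in medium with 2% donor horse serum, insulin, hydrocortisone and cholera toxin. On day 7 EGF was taken out and ethanol (control), the dimerizer, or the dimerizer together with TGF-β1 was given for 14 days, to day 21. The 12 other samples were JNKKO acini with dimerizer and TGF-β1 and the 3 matching groups of WT acini, and they entered here for the estimate of spread and for the test of where JNKKO acini responded unlike WT acini. The labels give neither the JNK genes edited nor the number of clones, nor whether replicates were separate cultures. All p-values therefore rest on the spread among these libraries, and that spread may be technical.

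HER2 (ERBB2) is a receptor tyrosine kinase of the EGF receptor family that is amplified in a subset of breast cancers. Once paired it signals through RAS and the kinases ERK1 and ERK2, and through PI3-kinase. JNK is a separate stress-activated kinase that phosphorylates JUN, a subunit of the transcription factor AP-1. In mammary acini an outer layer of cells contacts laminin of the basement membrane through integrins, and ordered growth ends when the acinus has formed.

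Between 24243537 and 32563064 expected counts were assigned to genes in each of the 6 libraries, and 16911 genes were abundant enough to test. The first principal component of the 6 libraries held 55.8% of their variance and separated dimerizer from control. Replicate 2 of the dimerizer group stood apart from the other 2, with a chi-square per gene of 6.38 to 6.55 against them, while every other pair of replicates lay between 2.28 and 3.23. A second split ran across the whole series. A set of 6 genes of B lymphocytes (IGHM, IGKC, CD79A, CD79B, MS4A1 and CD22), which a mammary line is not known to express, summed to 10.3 to 12.3 counts per 1000000 (CPM) in 8 libraries and to 2.19 to 3.59 CPM in the other 10. In JNKKO acini the 3 control libraries held 11.9, 10.6 and 11.9 CPM and the 3 dimerizer libraries 3.46, 3.38 and 2.70 CPM, so within JNKKO this split and the treatment cannot be told apart. Libraries of 1 group fell on both sides only through WT dimerizer replicate 1 and WT dimerizer with TGF-β1 replicate 3. The genotype tag of the latter disagrees with its title. These libraries allowed a second fit with a term for the split, chosen after the data were seen. The size of the term rests on them. That fit tied 16 genes to the split at an adjusted p under 0.05, all higher in the 8 libraries, among them IGHM, CD74, CD79A and BMP7. The term was built from the summed CPM of the 6 genes of the set. Their own link to it, and the end of the calls of 4 of them, were thus largely fixed in advance. MS4A1 went from -2.38 (adjusted p = 0.000522) to -0.81 (adjusted p = 0.288) and IGHM from -1.84 (adjusted p = 0.0118) to -0.14 (adjusted p = 0.74). CD79B went from -2.198 (adjusted p = 0.0288) to 0.03 (adjusted p = 0.969) and IGKC from -2.37 (adjusted p = 0.0272) to 0.196 (adjusted p = 0.875). The other named genes that lost their call with the term are given with both values where they are described.

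**Figure D1:**
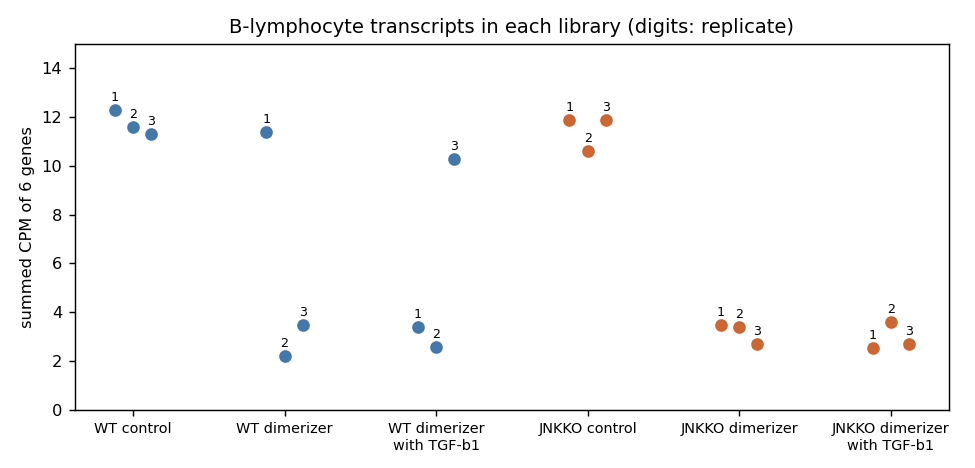
Summed CPM of 6 B-lymphocyte genes (vertical axis) in each of the 18 libraries, by group, with the replicate number above each point and JNKKO groups in orange. The 3 JNKKO controls sit between 10.6 and 11.9 and the 3 JNKKO dimerizer libraries between 2.70 and 3.46, and 1 WT dimerizer library and 1 WT library with TGF-β1 sit with the controls.

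The dimerizer moved a large share of the transcriptome, mostly by small amounts. Of 16911 genes tested with edgeR's quasi-likelihood test and Benjamini-Hochberg adjustment, 6829 (40.4%) passed an adjusted p of 0.05, 3803 higher (22.5%) and 3026 lower (17.9%) with dimerizer. On the scale of transcripts per 1000000 (TPM) tested with limma the balance turned, with 2815 higher and 3219 lower. Among the genes that passed, 4902 (71.8%) differed by under 1.5-fold. At least 2-fold changes were found in 946 genes (5.59%), 523 higher (3.09%) and 423 lower (2.50%), and at least 4-fold changes in 169 higher and 69 lower. With limma on log2(TPM + 1) the 2-fold count was 292. The CPM of the 3 dimerizer and 3 control libraries did not overlap in 8338 genes (49.3%). Among the genes that passed this held for 6514 (95.4%), so a lack of overlap adds little for a gene that passed. The median log2 difference over all genes tested was 0.01. With the term for the lymphocyte split 4781 genes passed, 2707 higher and 2074 lower, and 4580 of the 6829 did so again. Of the 6829 genes 6810 kept their direction with the term, whether they passed again or not, and 19 turned. In the list counts below, rose and fell mean passed as higher or lower. A gene that leaves such a count with the term may therefore keep the size of its difference. Each list count is to be read against the 22.5% higher and 17.9% lower over all genes. Protein-coding genes passed more often (6331 of 13877, 45.6%) than lincRNAs (174 of 926, 18.8%). The 2 types were not matched for count level, on which the power of the test depends. In bulk RNA a change in the share of a cell type and a change in RNA per cell cannot be told apart.

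**Figure D2:**
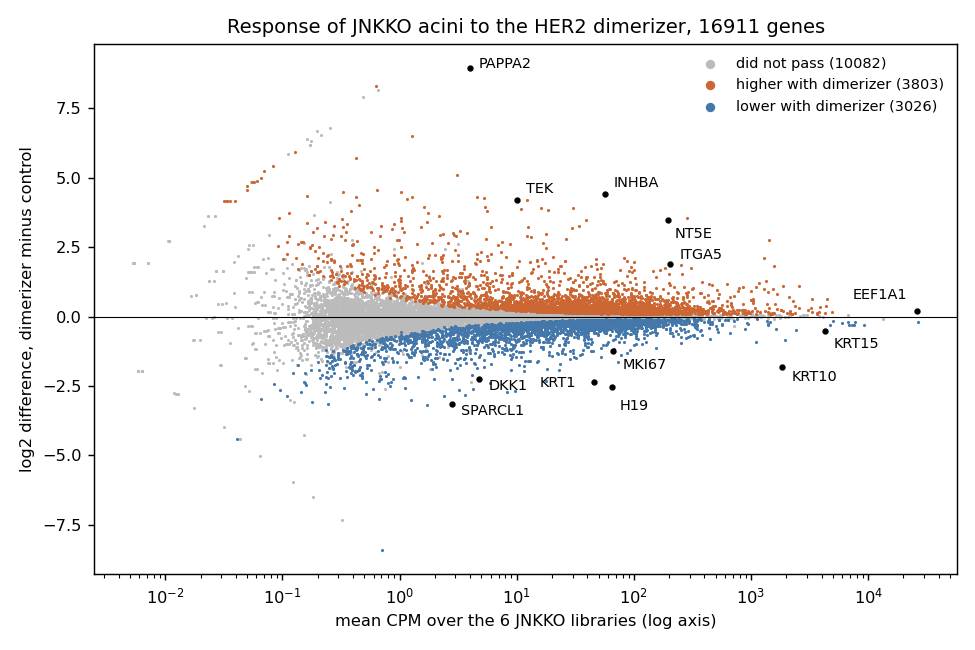
Log2 difference between dimerizer and control (vertical axis) against mean CPM over the 6 JNKKO libraries (horizontal, log axis) for 16911 genes, with the 3803 that passed as higher in orange, the 3026 that passed as lower in blue and the rest in grey. INHBA, TEK and NT5E, at 3.47 to 4.41, lie near the top, and KRT10, at -1.82, lies below 0 at high CPM.

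The genes the labels and the construct turn on were read first. MAPK8, which encodes JNK1, stood at 34.9, 33.5 and 32.0 CPM in JNKKO control and 29.9, 29.3 and 28.9 with dimerizer, against 25.3, 22.8 and 24.6 in WT control. MAPK9, which encodes JNK2, stood at 45.4, 42.1 and 44.6 CPM in JNKKO control, 44.5, 42.7 and 44.3 with dimerizer, and 63.0, 62.9 and 59.3 in WT control. Transcripts of both genes were thus present in the knockout libraries, and a gene count does not show whether a transcript carries an edit. MAPK8 fell by 0.19 on the log2 scale with dimerizer (SE 0.06, adjusted p = 0.00689), a call that limma on log2(TPM + 1) did not give (-0.195, adjusted p = 0.0522), and MAPK9 differed by -0.01 (SE 0.05, adjusted p = 0.93). MAPK10, which encodes JNK3, was at 6.30, 7.31 and 7.51 CPM in control and 7.47, 7.34 and 6.15 with dimerizer, overlapping values. ERBB2 and NGFR reads may come from the cells' own genes or from the chimera. ERBB2 read 73.2, 75.0 and 73.7 CPM in control and 57.9, 55.7 and 53.5 with dimerizer, a fall of -0.41 (SE 0.05, adjusted p = 2.68e-08). NGFR read 173, 176 and 190.2 CPM in control and 247, 253 and 267 with dimerizer, a rise of 0.51 (SE 0.10, adjusted p = 0.00078). The 2 groups did not overlap for either gene, and the 2 genes moved in opposite directions. Of 21 genes of the JNK kinases, their activators and scaffolds, 4 rose and 5 fell, at a median of -0.05. That is close to the shares over all genes, 22.5% higher and 17.9% lower. The 5 became 3 without control replicate 1 or without control replicate 3. With the lymphocyte term 2 passed as higher and 3 as lower. With limma on log2(TPM + 1) 2 rose.

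Genes that ERK signalling is known to switch on rose with dimerizer. All 10 tested ERK feedback inhibitors, phosphatases and Sprouty proteins that damp the pathway, were higher, at a median log2 difference of 0.86, where 22.5% of all genes were called higher. SPRY4, an inhibitor of RAS activation, went from 39.6, 39.0 and 44.4 CPM to 143, 174 and 158, a rise of 1.95 (SE 0.12, adjusted p = 1.39e-08). DUSP4 rose by 1.21, DUSP5 by 1.45 and DUSP6 by 0.87, each a phosphatase that removes activating phosphates from MAP kinases. With the lymphocyte term 8 of the 10 passed. Among 14 transcription factors that ERK induces, 10 rose and 1 fell, at a median of 0.43, including FOSL1 at 0.66 (SE 0.07, adjusted p = 2.95e-08).

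Of 9 tested ERBB ligands 4 rose and 2 fell. AREG, which encodes the EGF receptor ligand amphiregulin, went from 107, 114 and 109 CPM to 388, 405 and 402, with no overlap and a rise of 1.85 (SE 0.11, adjusted p = 1.59e-08). TGFA, which encodes another EGF receptor ligand, rose by 1.13 (SE 0.05) and EREG by 1.04 (SE 0.15). Of 6 receptors and receptor inhibitors 4 fell and 1 rose. ERBB3, the kinase-poor partner of HER2, read 11.8, 10.6 and 10.4 CPM in control and 7.13, 7.504 and 7.82 with dimerizer (-0.55, SE 0.10, adjusted p = 3.41e-05). EGFR differed by -0.10 (SE 0.05, adjusted p = 0.0877). It passed without dimerizer replicate 2 (-0.16, adjusted p = 0.00301), with limma on log2(TPM + 1) (-0.21, adjusted p = 0.0173), without the mitochondrial genes (-0.11, adjusted p = 0.0483) and without the WT library whose labels disagree (-0.114, adjusted p = 0.0357).

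AP-1 subunits split. Of 16 tested, 6 rose and 3 fell at a median of 0.10, and without dimerizer replicate 2 the number that fell was 5. FOS read 75.9, 106 and 74.7 CPM in control and 147, 152 and 133 with dimerizer, a rise of 0.75 (SE 0.16, adjusted p = 0.00194). JUN went from 60.6, 64.0 and 65.4 CPM to 98.4, 84.1 and 103, a rise of 0.59 (SE 0.07, adjusted p = 2.04e-06). FOSL2, another FOS family subunit, fell from 477, 467 and 467 CPM to 299.6, 289.6 and 292 (-0.68, SE 0.05, adjusted p = 5.63e-11). All 3 genes had groups that did not overlap. In WT acini JUN moved the other way (-0.23), and the difference between genotypes was 0.82 (adjusted p = 1.96e-06). For FOS that difference was 1.05 (adjusted p = 0.00205).

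**Figure D3:**
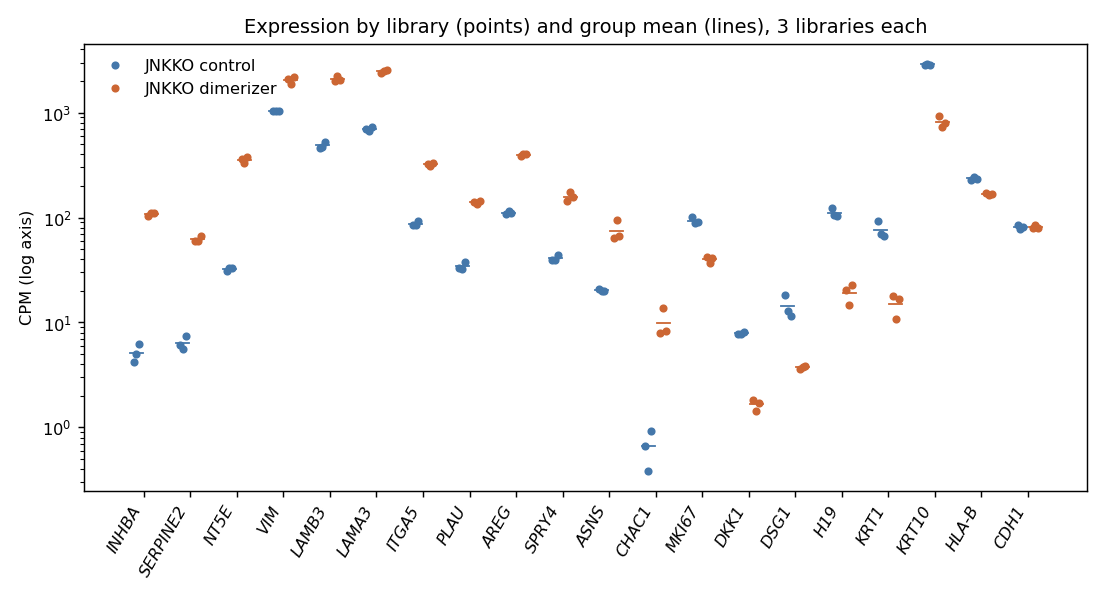
CPM (vertical, log axis) of 20 genes in the 3 control (blue) and 3 dimerizer (orange) JNKKO libraries, with points for libraries and lines for group means. The 2 groups are apart for every gene drawn except CDH1, whose control libraries at 78.5 to 85.4 CPM overlap the dimerizer libraries at 79.4 to 85.0.

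INHBA, the gene of the activin A subunit, a ligand of the TGF-β family, was among the genes that rose most. INHBA (chr7:41667168-41705834, minus strand, hg38) read 4.16, 5.05 and 6.17 CPM in control and 103, 111 and 111 with dimerizer, a rise of 4.41 (SE 0.20, adjusted p = 1.06e-09). Of 11 tested TGF-β and activin ligands 5 rose and 1 fell, while their median was -0.06, with TGFB1 itself at 0.56 (SE 0.08) and GDF15, a stress-induced ligand, at 0.96 (SE 0.16). BMP6, the gene of a BMP ligand, rose by 4.298 (SE 0.39, adjusted p = 5.18e-10), from 0.106, 0.141 and 0.115 CPM to 1.96, 3.54 and 1.80. The 1 that fell was BMP7 (-1.44, adjusted p = 0.0158), which gave 0.16 (adjusted p = 0.804) with the lymphocyte term and did not pass without dimerizer replicate 3 (-1.23, adjusted p = 0.0714). Of 20 known TGF-β and SMAD target genes, 13 rose and 5 fell, at a median of 0.44.

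Within those targets 2 sets went opposite ways. SKIL and PMEPA1, which activin and TGF-β receptors induce through SMAD3, rose by 1.27 (SE 0.07) and 1.40 (SE 0.07). SKIL, which encodes a repressor of SMAD activity, went from 13.4, 13.03 and 14.8 CPM to 30.2, 35.7 and 32.7, and PMEPA1, which encodes another inhibitor of SMAD signalling, from 15.5, 16.6 and 15.1 CPM to 41.0, 42.3 and 41.1. ATOH8, SMAD6, ID2 and ID3, which BMP receptors are known to induce, fell by 2.68, 1.69, 1.73 and 0.57. ATOH8, a transcription factor, went from 15.4, 17.6 and 17.3 CPM to 3.08, 2.08 and 2.77 (SE 0.14, adjusted p = 8.87e-12). ID1, of the same ID family of inhibitors of transcription factors, rose instead, from 55.7, 69.7 and 67.5 CPM to 101, 109 and 95.4 (0.66, SE 0.10). The split was described after the values were seen. FSTL3, which encodes a secreted trap for activin, rose by 0.61 (SE 0.07).

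Of 10 tested antagonists and latency proteins of the TGF-β family 6 rose and 1 fell, at a median of 0.60. LTBP1, which encodes a protein that tethers latent TGF-β to the matrix, went from 97.4, 103 and 105 CPM to 286, 287 and 307 (1.53, SE 0.10, adjusted p = 5.13e-08), and its relative LTBP3 fell by 0.84. BAMBI, a decoy receptor gene, rose from 3.98, 3.78 and 4.29 CPM to 6.88, 10.5 and 8.08. The receptor genes moved less, with 4 of 11 higher and 2 lower at a median of 0.06. Among them TGFBR3, the gene of the co-receptor betaglycan, fell from 92.4, 92.6 and 93.7 CPM to 43.1, 41.9 and 40.2 (-1.16, SE 0.09, adjusted p = 1.12e-07).

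Plasminogen activation was among the lists with the widest change. Of its 10 tested members 7 rose and 2 fell, at a median of 1.09. PLAU, which encodes the activator urokinase, went from 33.1, 32.7 and 38.0 CPM to 140.2, 134 and 144 (2.01, SE 0.09, adjusted p = 3.13e-10), and PLAUR, its receptor on the cell surface, rose by 1.27 (SE 0.08). SERPINE2, the gene of an inhibitor of the activators, went from 6.16, 5.61 and 7.47 CPM to 60.3, 59.7 and 66.3 (3.28, SE 0.12). Urokinase, its receptor and this inhibitor thus rose in the same libraries. PLAT, which encodes the tissue-type activator, fell from 139, 143 and 136 CPM to 71.5, 69.5 and 68.5 (-0.998, SE 0.09, adjusted p = 5.43e-07). ANXA2 and S100A10, whose proteins form a plasminogen receptor, rose by 1.01 and 1.17.

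Genes of laminin-332, the laminin that anchors basal epithelial cells, and of its receptors rose to high levels. LAMB3 (chr1:209614870-209652466, minus strand), the β3 chain gene, went from 459, 471 and 528 CPM to 1983, 2228 and 2028, and LAMA3, the α3 chain gene, from 693, 669 and 723 CPM to 2378, 2507 and 2536. The log2 differences were 2.10 (SE 0.10) and 1.83 (SE 0.05), so both chain genes rose, and no dimerizer library overlapped a control. ITGB4, the hemidesmosome integrin gene, rose by 1.10 (SE 0.06) and its partner ITGA6 by 0.54 (SE 0.04). In the laminin-332 and hemidesmosome list 8 of 9 rose, at a median of 0.54, and 1 fell, DST (-0.32, adjusted p = 0.00677), which encodes a linker to keratin filaments.

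Integrin genes rose beyond the hemidesmosome. Of 16 tested chains 12 rose and 1 fell, at a median of 0.65. ITGA5, the fibronectin receptor chain gene, went from 84.5, 84.0 and 92.6 CPM to 325, 311 and 332.3 (1.89, SE 0.11, adjusted p = 1.68e-08). ITGA3, whose product binds laminin-332, rose by 1.05, ITGB6, of the integrin that activates latent TGF-β, by 1.16, and ITGB1, the common β1 chain gene, by 0.64. In WT acini ITGA5 differed by -0.02 (adjusted p = 0.88), and the difference between genotypes was 1.91 (adjusted p = 5.06e-07).

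Because AP-1 binds near many genes of adhesion and proteolysis, the 250 bases before the start of each gene were searched on both strands for its letters TGANTCA, in promoters from RefSeq (GRCh38.p14). They occurred in 6.57% of 35116 promoters, in 3 of 8 promoters of the plasminogen list and in 1 of 5 of the laminin-332 list, which was LAMA3. The 2 matches of LAMA3 are shown because the gene rose in the same libraries as FOS and JUN, with the match in capitals, at chr18:23872884-23872913 and chr18:23872940-23872969 on the plus strand.
LAMA3 upstream match: ctggcacaggcTGACTCAtgtgtgaagttt
LAMA3 downstream match: ccttcctcaccTGAGTCAggcaggcccggg
A match describes the letters only. It does not show that AP-1 is bound there.

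Other matrix genes changed less evenly. Among 13 tested genes of matrix crosslinking and collagen hydroxylation 11 rose and none fell, at a median of 0.44, with LOXL2, a lysyl oxidase gene, going from 9.33, 11.97 and 9.88 CPM to 48.6, 28.4 and 47.6 (1.99, SE 0.29). Of 25 matrix metalloproteinase and ADAM genes 11 rose and 1 fell, and 7 rose with limma on log2(TPM + 1) without a filter. Collagens were divided, with 8 of 21 higher and 6 lower, the 6 becoming 3 with the lymphocyte term. Among 25 other matrix and matricellular genes 5 rose and 11 fell. SPARCL1, which encodes a matricellular protein, fell from 5.85, 5.19 and 3.98 CPM to 0.513, 0.671 and 0.483 (-3.16, SE 0.26, adjusted p = 6.48e-11). FN1, the fibronectin gene, varied widely within control, at 29.6, 9.96 and 12.3 CPM, against 52.7, 38.9 and 56.0 with dimerizer. Its rise of 1.499 (SE 0.41, adjusted p = 0.0103) did not pass in a fit of the 6 JNKKO libraries alone (1.48, adjusted p = 0.0701) or with the lymphocyte term (1.59, adjusted p = 0.0591).

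Mesenchymal genes rose in part, and the E-cadherin gene did not pass. VIM, the gene of the filament protein vimentin, went from 1035, 1025 and 1026 CPM to 2089.9, 1889 and 2187 (0.998, SE 0.05, adjusted p = 6.16e-13). CDH2, which encodes N-cadherin, rose by 0.63 (SE 0.13, adjusted p = 0.000186) at 5.47 to 6.04 CPM with dimerizer. CDH1, which encodes E-cadherin, differed by 0.00 (SE 0.06, adjusted p = 0.994), with the ranges 78.5 to 85.4 and 79.4 to 85.0 CPM. NT5E, which encodes the ectoenzyme CD73 that makes adenosine, went from 30.7, 32.9 and 33.1 CPM to 365, 330.2 and 376 (3.47, SE 0.15, adjusted p = 6.99e-10). In the list of 15 mesenchymal transition genes 8 rose and 3 fell, at a median of 0.19, a smaller shift than in the laminin or plasminogen lists. Of 30 genes of the actin cytoskeleton 20 rose and 5 fell, at a median of 0.24, with 3 falling when dimerizer replicate 2 was left out.

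The largest fold rises among genes above 5 CPM included secreted proteins, membrane receptors and enzymes. PAPPA2, which encodes a protease that frees IGF from its binding proteins, had 1 count in the 3 control libraries and 710 in the 3 dimerizer libraries. Scaled to library size the ratio was 686, with a 95% interval of 123 to 27100 that covers counting error only, and the dimerizer libraries read 4.40, 13.3 and 6.08 CPM. TEK, the gene of the angiopoietin receptor TIE2, went from 1.06, 0.777 and 1.30 CPM to 19.5, 16.7 and 20.9 (4.19, SE 0.18, adjusted p = 6.15e-16). ITPKA, which encodes an inositol phosphate kinase that also bundles actin, went from 1.90, 2.44 and 2.80 CPM to 31.9, 39.8 and 31.2 (3.86, SE 0.18). CHGB, which encodes a protein of secretory granules, went from 6.59, 5.75 and 6.67 CPM to 61.0, 86.1 and 65.7 (3.49, SE 0.17). TMEM176B, AOC1, ADM2, INSC, CHRNA9, C10orf10, PADI4 and CBS were also among the 15 largest rises, between 3.81 and 5.09 for those 8.

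Genes of amino acid supply and the ATF4 response rose. ATF4 is the transcription factor made when amino acids run short or the endoplasmic reticulum is stressed. Of 30 genes of the list 25 rose and 1 fell, at a median of 0.57, and 17 of 20 tested aminoacyl-tRNA synthetase genes rose, at a median of 0.40, with 1 lower. CHAC1, which encodes a glutathione-degrading enzyme, went from 0.669, 0.388 and 0.919 CPM to 7.99, 13.7 and 8.24 (3.93, SE 0.29, adjusted p = 2.62e-09). ASNS, the asparagine synthetase gene, went from 20.8, 19.8 and 19.9 CPM to 63.5, 94.4 and 66.4 (1.89, SE 0.15). PHGDH, the first enzyme gene of serine synthesis, rose by 1.79 (SE 0.17) and TRIB3, a feedback inhibitor of ATF4, by 1.67 (SE 0.15). ATF4 itself rose by 0.51 (SE 0.04). The 1 member that fell was SLC7A5, which encodes a carrier of large neutral amino acids (-0.45, adjusted p = 0.00619), and it did not pass in the 6 JNKKO libraries alone (-0.46, adjusted p = 0.0506) or with the lymphocyte term (-0.47, adjusted p = 0.058).

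Replicate 2 of the dimerizer group was the highest of the 3 for CHAC1, ASNS, TRIB3 and PHGDH. STC2, which encodes a secreted inhibitor of PAPPA proteases and belongs to the same stress response, showed it most plainly, at 31.1, 29.1 and 32.8 CPM in control and 96.0, 201 and 107 with dimerizer (2.13, SE 0.25). IL1B, the interleukin-1β gene, read 2.71, 3.32 and 3.03 CPM in control and 9.70, 21.3 and 8.95 with dimerizer (2.15, SE 0.31). The same library was the lowest of the 3 for others, such as C10orf10 at 69.1, 36.7 and 65.5 CPM and PADI4, a citrullinating enzyme gene, at 25.5, 14.1 and 21.6. In every case named, all 3 dimerizer libraries lay above all 3 controls.

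ATF4 binds composite C/EBP-ATF sites, whose letters TGATGNAA were searched in the same promoters on both strands. They occurred in 3.14% of all promoters, in 3 of 25 of the ATF4 list (ASNS, ATF3 and CHAC1) and in 2 of 16 of the synthetase list (AARS and IARS). The windows of ASNS (chr7:97872458-97872487, minus strand) and CHAC1 (chr15:40953251-40953280, plus strand, match on the other strand) are shown because both genes rose in all 3 dimerizer libraries. Capitals mark the match, and windows run in the direction of the gene.
ASNS: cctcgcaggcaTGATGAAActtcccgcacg
CHAC1: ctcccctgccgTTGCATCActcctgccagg
ATF3, a stress-induced factor whose promoter also holds the letters, read 3.52, 3.601 and 3.75 CPM in control and 2.61, 4.06 and 2.57 with dimerizer. Its difference was -0.22 (adjusted p = 0.315), and -0.48 (adjusted p = 0.0297) without dimerizer replicate 2.

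Genes of protein folding, oxygen sensing and sugar and lipid metabolism rose by less. Of 28 endoplasmic reticulum chaperone and stress genes 23 rose and none fell, at a median of 0.23. HSPA5, the main chaperone gene of that compartment, went from 379.9, 372 and 362 CPM to 516, 595 and 535 (0.56, SE 0.04, adjusted p = 2.17e-11), and XBP1, a factor of the unfolded protein response, rose by 0.98 (SE 0.11). Among 17 hypoxia response genes 15 rose, at a median of 0.38, and 9 still passed as higher with the lymphocyte term. EGLN3, an oxygen-sensing hydroxylase gene, went from 17.3, 18.7 and 20.4 CPM to 73.9, 54.4 and 72.3 (1.83, SE 0.25), and NDRG1, a stress-induced gene, from 737, 783 and 811 to 1930.5, 1724 and 1987 (1.28, SE 0.09). Of 22 glycolysis genes 16 rose and none fell, led by the glucose transporter gene SLC2A3 at 2.61 (SE 0.25). Among 23 sterol genes 14 rose and 2 fell, with STARD4, which encodes a sterol carrier, at 0.71 (SE 0.05). Cytosolic heat shock genes did not share the rise, with 2 of 13 higher and 5 lower at a median of 0.04, and the 5 became 3 without control replicate 3 or with the lymphocyte term.

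Genes of cell division fell. All 44 tested genes of mitosis and the spindle were lower with dimerizer, at a median log2 difference of -0.78, where 17.9% of all genes were called lower. MKI67, the proliferation marker, read 101, 88.6 and 90.5 CPM in control and 41.9, 36.7 and 41.3 with dimerizer (-1.23, SE 0.14, adjusted p = 1.37e-05). KIF20A, which encodes a kinesin of cytokinesis, went from 22.8, 23.97 and 22.6 CPM to 11.1, 8.21 and 11.9 (-1.16, SE 0.13), and TOP2A, a topoisomerase gene, from 117, 107 and 94.5 CPM to 56.0, 51.6 and 63.0 (-0.90, SE 0.12). None of the 3 genes overlapped between groups. Of 41 DNA replication genes 35 fell and none rose, at a median of -0.43, with TK1, the thymidine kinase gene, at -1.12 (SE 0.15). E2F2 and MYBL2, transcription factors of S phase, fell by 1.36 and 1.44. With the lymphocyte term 41 mitosis genes and 23 replication genes still passed as lower. Cyclins and inhibitors of G1 were mixed, with 5 of 16 higher and 7 lower, or 3 lower with the term. CCND1, which encodes cyclin D1, rose from 86.0, 88.0 and 90.2 CPM to 130.4, 109.98 and 136 (0.51, SE 0.08) and CDKN1A, the gene of the inhibitor p21, from 212, 216 and 223 CPM to 308, 331 and 305 (0.53, SE 0.04).

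In WT acini the cell division genes did not fall on balance. The median of the 44 mitosis genes was 0.55 in WT, and the genotypes differed for all 44, each lower in JNKKO, where 21.2% of all genes were called in that direction. MKI67 differed by 0.17 in WT (47.3, 74.8 and 57.5 CPM in control, 61.0, 78.2 and 62.8 with dimerizer, overlapping values), and the difference between genotypes was -1.40 (SE 0.20, adjusted p = 7.73e-05). In JNKKO controls MKI67 stood at 88.6 to 101 CPM against 47.3 to 74.8 in WT controls. Of 41 replication genes 33 differed in the same direction.

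Many genes of cell division carry the CHR element, with the letters TTTGAA, through which MuvB complexes hold them down outside division. The letters, searched on both strands, occurred in 13.3% of all promoters and in 19 of the 37 promoters found for the 44 mitosis genes (51.4%). CCAAT, the box bound by NF-Y, occurred in 32.0% and in 27 of 37 (73.0%). The windows of 5 genes that fell are shown as examples, with 1 match each, and other genes that fell hold the letters TTTGAA too. Capitals mark the match, and each window runs in the direction of its gene. A match describes the letters only, and whether it works as a CHR was not tested. They lie at chr10:128126435-128126464 (MKI67, minus strand), chr16:23678848-23678877 (PLK1, plus), chr10:60778158-60778187 (CDK1, plus), chr15:40161034-40161063 (BUB1B, plus) and chr15:59105105-59105134 (CCNB2, plus).
MKI67: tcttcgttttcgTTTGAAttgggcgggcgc
PLK1: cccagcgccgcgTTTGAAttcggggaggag
CDK1: gagtataataaaTTTGAActgtgccaatgc
BUB1B: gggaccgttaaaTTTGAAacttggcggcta
CCNB2: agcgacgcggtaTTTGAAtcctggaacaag
The first T of the match shown lies 29 bases before the start in MKI67, PLK1 and CCNB2, 23 in BUB1B and 161 in CDK1. A second match in MKI67 begins 47 bases before the start. Matches not shown begin at 194 and 151 bases in TOP2A and at 178 and 65 in CDC20, and both genes fell. PLK1, a mitotic kinase gene, went from 27.7, 28.6 and 22.9 CPM to 13.5, 12.4 and 15.4 (-0.94, SE 0.15), and CDK1, the kinase gene of mitotic entry, from 27.7, 23.8 and 23.4 to 18.1, 13.9 and 16.5 (-0.64, SE 0.10). BUB1B, a spindle checkpoint gene, fell by 0.54 (SE 0.13) and CCNB2, which encodes cyclin B2, by 0.71 (SE 0.10).

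**Figure D4:**
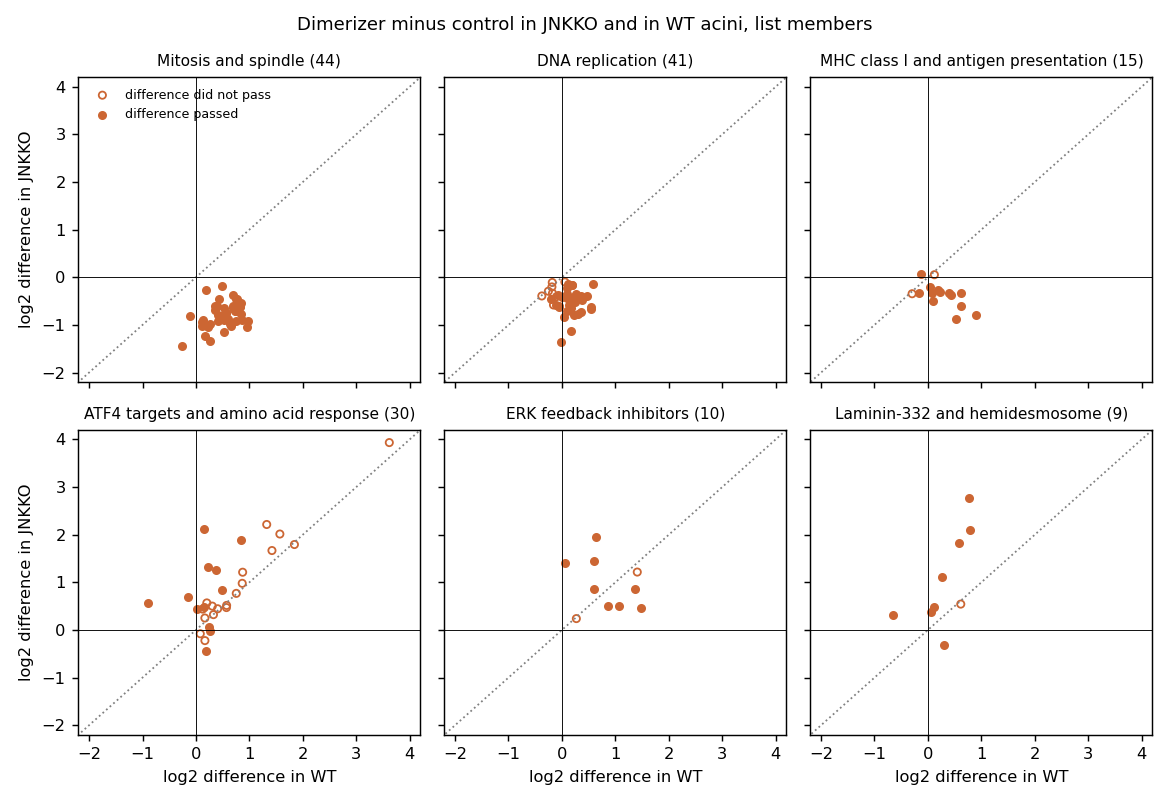
Log2 difference of dimerizer minus control in JNKKO (vertical) and WT (horizontal) for the tested members of 6 lists, with filled points where the difference between genotypes passed and a dotted line where both would be equal. All 44 mitosis genes lie below the line, while ERK feedback inhibitors fall on both sides (4 higher and 4 lower in JNKKO).

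Keratins and genes of squamous differentiation fell. KRT10, a keratin of cells that have left the basal layer, read 2870.3, 2884 and 2862 CPM in control and 935, 724 and 790.3 with dimerizer (-1.82, SE 0.17, adjusted p = 1.53e-06). KRT1, its partner in the epidermis, fell from 92.3, 69.0 and 67.0 CPM to 17.7, 10.7 and 16.6 (-2.36, SE 0.19). KRTDAP and SERPINB3, both known from differentiating squamous cells, fell by 2.63 and 2.84. Of 23 squamous differentiation genes 13 fell and 1 rose, at a median of -0.79, and 6 still passed as lower with the lymphocyte term. Members that lost their call with the term included CALML5, from -2.25 to -2.03 (adjusted p = 0.065), and SPRR1A, from -2.09 to -1.67 (adjusted p = 0.113). SBSN went from -1.43 to -1.40 (adjusted p = 0.075). These 3 thus kept their direction and much of their size. Among 19 keratins 9 fell and 3 rose. KRT14, of the basal layer, fell by 0.70 (SE 0.08), and KRT6A, of activated keratinocytes, rose from 2535, 2588 and 2684 CPM to 4014, 3893 and 4106 (0.62, SE 0.03). KRT5, the basal partner of KRT14, differed by -0.20 (adjusted p = 0.0367). It passed no longer with the replicate number as a block (-0.20, adjusted p = 0.0566), or when control replicate 1, 2 or 3 or dimerizer replicate 2 was left out (adjusted p from 0.0692 to 0.154).

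Cell junction genes fell more often than they rose, by small amounts. Among 12 desmosome genes 7 fell and 1 rose, at a median of -0.25. DSG1, a desmosomal cadherin gene of upper layers, went from 18.5, 12.8 and 11.5 CPM to 3.59, 3.80 and 3.83 (-1.93, SE 0.30, adjusted p = 0.000158), and DSP, the gene of the main plaque protein, from 2952, 2695 and 2797 to 1982, 2055 and 1946 (-0.50, SE 0.04). Among 26 genes of tight and adherens junctions and polarity 10 fell and 3 rose, at a median of -0.08. EPCAM, an epithelial adhesion gene, went from 15.7, 15.2 and 12.9 CPM to 7.00, 6.93 and 7.43 (-1.04, SE 0.10). EHF, an epithelial ETS transcription factor gene, fell from 26.8, 22.8 and 21.4 CPM to 13.2, 12.9 and 12.004 (-0.90, SE 0.09). In WT acini EHF rose by 2.45, and the difference between genotypes was -3.35 (adjusted p = 4.62e-17).

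Genes of the insulin-like growth factor (IGF) axis went both ways, with 5 of 17 higher and 5 lower at a median of 0.00. The shares over all genes were 22.5% higher and 17.9% lower. H19, an imprinted noncoding RNA (chr11:1995176-2001470, minus strand), went from 125, 105 and 102.5 CPM to 20.6, 14.7 and 22.6 (-2.53, SE 0.19, adjusted p = 2.01e-07). IGFBP5, which encodes an IGF-binding protein, went from 5.42, 3.85 and 3.45 CPM to 0.769, 0.415 and 0.579 (-2.87, SE 0.31). IGFBP6, which encodes another IGF-binding protein, rose from 4.75, 4.38 and 5.17 CPM to 14.3, 10.2 and 15.6 (1.49, SE 0.23, adjusted p = 0.000168). In WT acini H19 was far lower to begin with, at 5.78 to 6.95 CPM in control, and differed by 0.42 (adjusted p = 0.217).

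In the Wnt, YAP and NF-κB lists more genes were called lower than higher, and the Notch list was mixed. Over all genes 17.9% were called lower and 22.5% higher. DKK1, which encodes a secreted Wnt inhibitor, fell from 7.71, 7.80 and 8.199 CPM to 1.84, 1.44 and 1.71 (-2.26, SE 0.16, adjusted p = 8.62e-11), and 13 of 28 Wnt pathway genes fell with 3 higher. WNT7A, a Wnt ligand gene, rose by 2.01 (adjusted p = 1.83e-11). NOTCH1, the receptor gene, went from 578, 551 and 575 CPM to 322, 326 and 315 (-0.82, SE 0.06, adjusted p = 1.73e-08). HEY1, of the Notch list too, rose by 2.19 (adjusted p = 1.71e-13). The 16 tested Notch pathway genes had 6 lower and 4 higher at a median of 0.05, with 2 higher without control replicate 1. Passed or not, 9 of them had a positive log2 difference and 7 a negative one. Among 19 YAP and TEAD targets 10 fell and 3 rose, with the matricellular gene CYR61 at -0.59 (SE 0.09). None of those that fell reached 2-fold, while 2 of those that rose did, among them F3 at 1.42 (adjusted p = 4.76e-09). WISP2, a related matricellular gene outside this list, fell from 13.6, 14.8 and 15.1 CPM to 2.09, 1.76 and 2.67 (-2.73, SE 0.13). Among 15 NF-κB genes 9 fell and none rose, at a median of -0.30, where the inhibitor of apoptosis gene BIRC3 went from 388, 409.7 and 393 CPM to 248, 263 and 243 (-0.66, SE 0.08). MCL1, an anti-apoptotic BCL2 family gene, rose from 712, 710.0 and 705 CPM to 1435, 1528 and 1512 (1.07, SE 0.04, adjusted p = 3.39e-18), while the BCL2 family as a whole had 5 of 15 higher and 4 lower.

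Antigen presentation genes fell by small amounts. Of 15 genes of MHC class I and its loading machinery 13 were lower and none higher, at a median of -0.33, and 12 passed with the lymphocyte term. HLA-B, a class I heavy chain gene, read 229.5, 243 and 235 CPM in control and 169.9, 165 and 169 with dimerizer (-0.49, SE 0.05, adjusted p = 7.19e-08). TAP1, the peptide transporter gene, fell by 0.61 (SE 0.05) and NLRC5, the factor that drives class I genes, by 0.78 (SE 0.11). In WT these 2 rose by 0.62 and 0.90, and 12 of the 15 genes differed between genotypes as lower in JNKKO. Of 28 interferon-stimulated genes 14 fell and 3 rose, with 9 lower under the term. OAS2, an antiviral enzyme gene, was one of the 3 (0.66, SE 0.15, adjusted p = 0.000921). Of 5 tested MHC class II genes 3 were lower, among them CD74 (-1.53, adjusted p = 0.0134) and HLA-DPA1 (-1.14, adjusted p = 0.00664). With the term these were -0.10 (adjusted p = 0.804) and 0.14 (adjusted p = 0.803), no class II gene passed, and without dimerizer replicate 3 CD74 gave -1.41 (adjusted p = 0.0528).

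**Figure D5:**
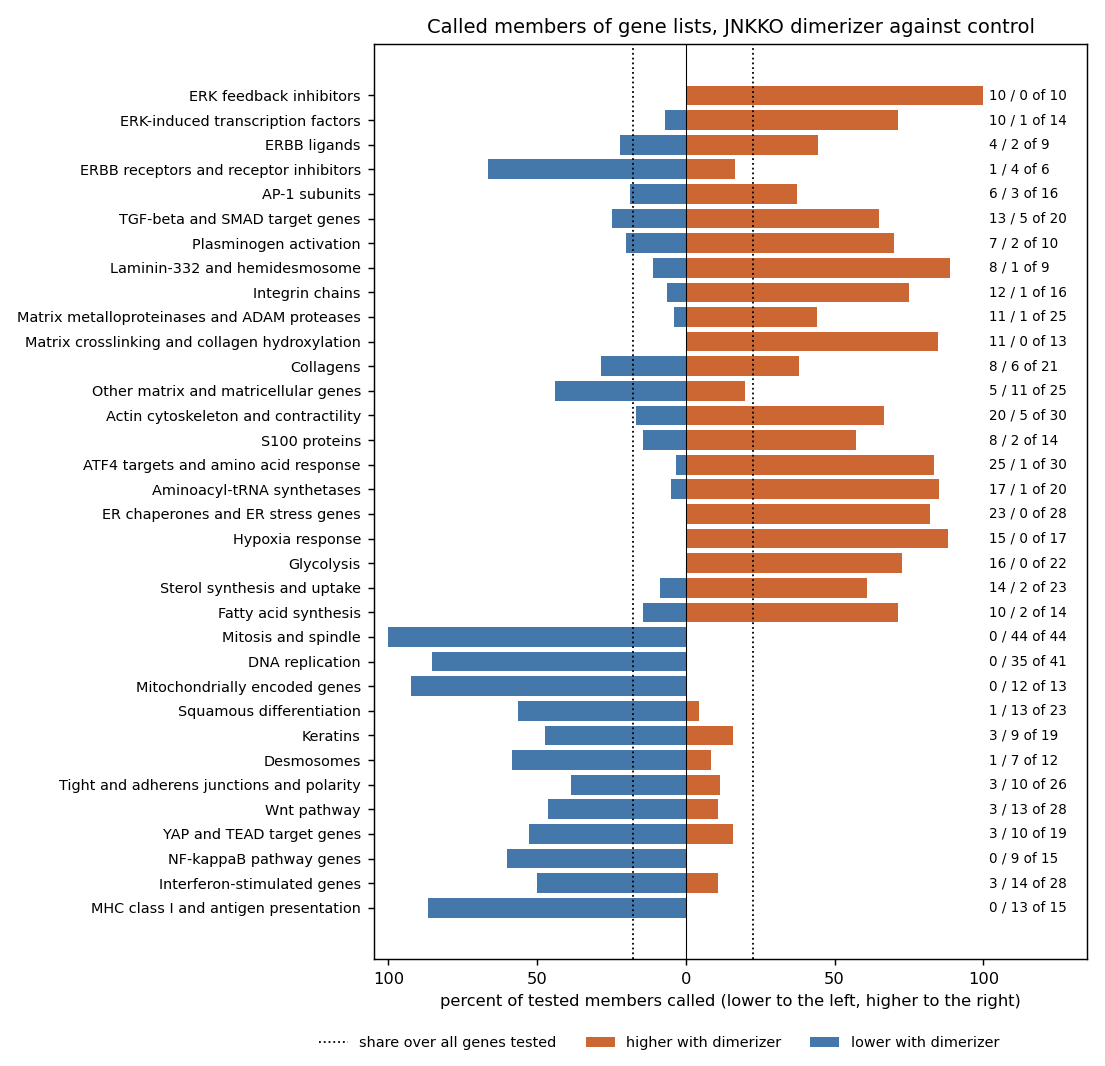
Percent of the tested members of 34 gene lists that passed as higher (orange, to the right) and lower (blue, to the left) with dimerizer in JNKKO acini, with the counts at the right and dotted lines at the shares over all genes, 22.5% and 17.9%. ERK feedback inhibitors reach 10 of 10 higher and mitosis genes 44 of 44 lower.

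Secreted signals other than the ERBB and TGF-β ligands went both ways. Of 24 cytokines and chemokines 7 rose and 5 fell, near the shares of 22.5% higher and 17.9% lower over all genes. CSF3, the gene of the neutrophil growth factor G-CSF, went from 5.49, 5.23 and 5.17 CPM to 19.4, 22.0 and 20.8 (1.97, SE 0.27, adjusted p = 5.25e-05). CCL20, a chemokine gene, rose by 1.32 (SE 0.15), and CXCL14, another, fell by 1.65 (SE 0.21). Among 23 ligands and receptors of the FGF, PDGF and VEGF families 7 rose and 6 fell. VEGFC, the lymphatic growth factor gene, went from 0.845, 0.53 and 1.15 CPM to 3.46, 3.58 and 4.05 (2.15, SE 0.20), and FGFBP1, which encodes a carrier that releases FGF from the matrix, from 23.6, 23.4 and 21.3 CPM to 9.01, 5.94 and 7.56 (-1.62, SE 0.19). None of these genes overlapped between groups, as held for 95.4% of all genes that passed. Among 14 ephrins and Eph receptors, which signal between touching cells, 4 rose and 6 fell, with the ligand gene EFNB2 at 1.22 (SE 0.07) and the receptor gene EPHA4 at -1.83 (SE 0.14).

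Genes of extracellular nucleotides and adenosine, enzymes and receptors together, were divided as well, with 3 of 12 higher and 5 lower. For this and the next lists the shares over all genes were 22.5% higher and 17.9% lower. While NT5E rose, ENPP1, which encodes an ectoenzyme that cleaves ATP, fell from 5.32, 3.78 and 4.67 CPM to 0.854, 0.99 and 1.03 (-2.24, SE 0.21, adjusted p = 9.67e-10). In WT acini ENPP1 differed by -0.23 (adjusted p = 0.247), and the difference between genotypes was -2.01 (adjusted p = 6.49e-07). Among 20 targets of NRF2 and of the aryl hydrocarbon receptor, which answer oxidants and foreign chemicals, 8 fell and 2 rose, at a median of -0.13. ALDH3A1, an aldehyde dehydrogenase gene, went from 30.8, 37.9 and 38.0 CPM to 11.4, 11.8 and 9.75 (-1.70, SE 0.17). ALDH1A2, whose enzyme makes retinoic acid, went the other way, from 0.423, 0.424 and 1.23 CPM to 6.53, 5.08 and 5.79 (3.08, SE 0.29, adjusted p = 1.27e-09). Of 14 S100 protein genes 8 rose and 2 fell, at a median of 0.58, and of 14 fatty acid synthesis genes 10 rose and 2 fell, at a median of 0.28, with the desaturase gene SCD at 1.05 (SE 0.07). Of 30 lysosome genes 10 rose and 4 fell. CTSB, the gene of the protease cathepsin B, went from 340.2, 349 and 365 CPM to 698, 631 and 709 (0.95, SE 0.04, adjusted p = 9.77e-17) and fell by 0.41 in WT, a difference of 1.36 between genotypes (adjusted p = 7.45e-17).

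Genes encoded by mitochondrial DNA took a smaller share of the counts with dimerizer. The share was 9.20% ± 0.0968 (SD, n = 3) in control and 7.46% ± 0.1275 (SD, n = 3) with dimerizer, a difference of -1.75 percentage points, and the groups did not overlap (exact two-sided permutation p = 0.1, the smallest that 3 against 3 allows). Of 13 mitochondrial genes 12 passed as lower, at a median of -0.24. In WT acini the share went from 13.1% to 7.40%, and all 13 genes differed between genotypes as less lowered in JNKKO. MT-CO1, a subunit gene of complex IV, went from 27992, 28219 and 28934 CPM to 25096, 25304 and 24796 in JNKKO (-0.18, SE 0.04). Outside the mitochondrion the largest falls in CPM were KRT10, KRT15, GLUL and KRT5, and EEF1A1, ITGB4, MALAT1 and LAMA3 were among the largest rises. GLUL, the glutamine synthetase gene, fell from 2486, 2521 and 2519.8 CPM to 1482, 1250.0 and 1423 (-0.86, SE 0.06).

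The markers of the labelled cell type were present throughout. Summed over 17 mammary basal markers the CPM ran from 15800 to 16500 in control and 18700 to 19700 with dimerizer, with CNN1 at 0. The rise was not shared, since of 16 tested basal markers 7 rose and 4 fell, at a median of 0.04. LAMB3 and ITGB4 were among those that rose, and KRT5 and KRT14 among those that fell. Luminal markers summed to 434 to 468 and 409 to 469 CPM, with PGR, ELF5, KIT and ANKRD30A at 0 in all 6 libraries. Fibroblast markers summed to 70.5 to 75.8 and 57.3 to 67.1 CPM, with 8 of 12 below 1 CPM in every library. Of 6 tested 3 rose, each at least 2-fold, among them COL6A3 at 2.66. Without control replicate 2 or without dimerizer replicate 3 the 3 became 1. The 2 that fell were DCN (-0.56, adjusted p = 0.005) and COL1A1 (-0.26, adjusted p = 0.000389), the latter at -0.17 (adjusted p = 0.0877) with the lymphocyte term. Endothelial markers summed to 37.0 to 39.3 and 34.1 to 40.3 CPM, with CDH5, the gene of the defining endothelial cadherin, at 0. Of its 3 tested members TEK rose, KDR, a VEGF receptor gene, fell from 25.6, 27.5 and 26.4 CPM to 12.3, 9.71 and 11.1 (-1.27, SE 0.07), and PECAM1, an adhesion gene, fell by 0.50 (adjusted p = 0.000474), or by 0.497 (adjusted p = 0.0708) with the lymphocyte term. Immune markers summed to 19.7 to 22.8 CPM in control and 67.7 to 82.4 with dimerizer. Most of that difference lay in CD68, a lysosomal membrane protein gene of macrophages and other cells, at 6.87, 6.14 and 6.90 CPM in control and 47.3, 42.1 and 47.5 with dimerizer (2.78, SE 0.14), and in CSF1R (1.93, SE 0.15). PTPRC, which encodes the pan-leukocyte protein CD45, differed by -1.39 (adjusted p = 0.065) and was below 1 CPM in every dimerizer library. It passed without dimerizer replicate 2 (-2.29, adjusted p = 0.012), without control replicate 2 (-1.6999, adjusted p = 0.0323), in the 6 JNKKO libraries alone (-1.397, adjusted p = 0.0378) and without a filter (-1.39, adjusted p = 0.00695), and gave 0.17 (adjusted p = 0.891) with the lymphocyte term. Adipocyte and neural markers summed to 22.8 to 29.4 and 71.6 to 98.1 CPM, through TUBB3, a tubulin gene, at 1.90 (SE 0.17), with ADIPOQ and LEP at 0.

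JNKKO acini responded unlike WT acini at many genes. The difference between the 2 responses passed for 7200 of 16911 genes (42.6%), with the JNKKO response the higher in 3611 (21.4%) and the lower in 3589 (21.2%). On the TPM scale with limma the split was 2078 higher and 4886 lower, and with a pseudocount of 0.1 the median over all genes was -0.13. SERPINE2 rose by 1.35 in WT (3.46, 2.84 and 4.40 CPM in control, 9.30, 9.39 and 8.62 with dimerizer) against 3.28 in JNKKO, a difference of 1.93 (SE 0.22, adjusted p = 5.41e-06). INHBA, NT5E and LAMB3 also rose in both genotypes, and by more in JNKKO, with differences of 2.39, 2.39 and 1.32. PLAU rose in both, by 2.01 in JNKKO and 1.80 in WT, and the difference of 0.22 (SE 0.14, adjusted p = 0.244) did not pass. Of the 20 TGF-β and SMAD targets, whose median was 0.44 in JNKKO and -0.52 in WT, 16 differed as higher in JNKKO and 2 as lower.

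ATOH8, SMAD6, ID2, ID3 and DKK1 fell in both genotypes, and by less in JNKKO, where controls were lower. DKK1 in WT went from 95.2, 96.8 and 97.8 CPM to 1.99, 1.84 and 1.97, a fall of -5.64 against -2.26 in JNKKO. ATOH8 fell by 4.91 in WT, from 91.3, 95.4 and 103 CPM to 2.69, 3.30 and 3.596. With dimerizer the 2 genotypes thus stood near each other for both genes, at 1.44 to 1.99 CPM of DKK1 and 2.08 to 3.596 CPM of ATOH8. KRT15, a basal keratin gene, rose in WT and fell in JNKKO. In WT it went from 894, 810.2 and 874 CPM to 5247, 5333 and 5638, while JNKKO controls already held 5078, 5005 and 4961 CPM and dimerizer libraries 3525, 3415 and 3458. The difference of the 2 responses was -3.19 (SE 0.16, adjusted p = 4.85e-09). AOX1, the aldehyde oxidase gene, changed in opposite directions, from 2.85, 3.21 and 2.64 CPM to 23.1, 17.1 and 24.5 in JNKKO (2.88, SE 0.13) and from 12.3, 11.4 and 12.4 CPM to 1.73, 1.63 and 1.55 in WT (-2.88).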

How the data were processed

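Poly(A) RNA of 18 acinus samples was depleted of ribosomal RNA and sequenced as read pairs on a NovaSeq6000 after random priming, per the labels' protocols. The submitters' processing notes name cutadapt, RSEM and hg38. Aligner, annotation, versions and strand setting (not given in the sources used here) leave overlapping, antisense and near-identical genes uncertain. The authors deposited RSEM expected counts, often not whole numbers, and TPM that sum to 1000000 per library, per the file headers. Poly(A) selection counts other RNA only in part.

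Here, expected counts were rounded and tested with the quasi-likelihood test of edgeR 4.0.16 (robust, TMM, default filter, 1 mean per group, all 18 libraries) in R 4.3.3, with Benjamini-Hochberg adjustment over 16911 genes and a threshold of 0.05. CPM are expected counts per 1000000 of TMM-scaled library size. Each standard error (SE) is the log2 difference over the root of the F statistic. Totals of 24243537 to 34499651 put a gene of 5 CPM at 121 counts or above. Adjusted p-values named in the text are from this fit unless another is named. Positions and gene types came from GENCODE 29, which matched 42125 of 42141 genes by transcript, and 127 altered names were restored first. Promoters came from RefSeq. Checks used limma 3.58.1 on log2(TPM + 1), DESeq2 1.42.0, numpy 2.4.6, pandas 2.3.3, scipy 1.17.1 and matplotlib 3.10.9. Scripts were tested on simulated data.

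Members, the 63 gene lists and the comparisons were chosen with earlier results of these data known. Named genes are the 15 largest rises and 15 largest falls that passed, reached 5 CPM and did not overlap, the 10 largest changes of CPM each way, up to 5 members per list at 1 CPM, 16 set genes (among them KRT5, KRT14, MKI67, FN1, VIM, CDH1, CDH2, FOS, JUN, EGFR, NGFR, ERBB2 and the JNK genes MAPK8, MAPK9 and MAPK10) and the 10 largest interactions each way. Other genes were named after their values were seen. Some genes that the rule names are not reported here. For WT dimerizer with TGF-β1 replicate 3 the genotype tag and the title disagree. The tests were repeated without that library, except for the fit with the lymphocyte term. Replicate numbers of JNKKO dimerizer and control did not pair samples, with deviation correlations of -0.036, -0.0585 and 0.026.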

Additional observations from a re-analysis of the deposited data

Results flagged for a closer look

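These 20 genes had the largest differences between the JNKKO and WT responses under the naming rule, by the interaction test, on the log2 scale (JNKKO minus WT).

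The JNKKO response was higher for AOX1, the aldehyde oxidase gene, by 5.76, for SAMD11 by 4.68, for ITPKA, an inositol phosphate kinase gene, by 3.98, for C10orf10 by 3.92 and for PADI4, a citrullinating enzyme gene, by 3.80. It was also higher for INSC by 3.75, for SPX by 3.59, for C5AR2 (spelled CSAR2 in the deposited table), a complement receptor gene, by 3.52, for VSTM2L by 3.48 and for DKK1, a secreted Wnt inhibitor gene, by 3.38. ITPKA, C10orf10, PADI4 and INSC rose in JNKKO acini and did not pass in WT acini. SAMD11 fell from 6.83, 5.13 and 7.42 CPM to 0.0664, 0.175 and 0.0843 in WT, and was at 0.353 to 0.634 CPM in JNKKO control. Its JNKKO fall of -1.15 (adjusted p = 0.0175) did not pass without control replicate 1 (-0.92, adjusted p = 0.104), without dimerizer replicate 3 (-0.94, adjusted p = 0.0887) or with the lymphocyte term (-0.93, adjusted p = 0.187).

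The JNKKO response was lower for SPARCL1, a matricellular gene, by a difference of -4.53, for FGF1, a fibroblast growth factor gene, of -4.47, for CXCL14, a chemokine gene, of -3.77, for BBOX1 of -3.73 and for PHACTR3 of -3.60. It was also lower for CALML3, a calmodulin-like gene of epithelium, at -3.48, GPNMB at -3.44, EHF at -3.35, KRT15 at -3.19 and SFTPD, a collectin gene, at -3.06. FGF1 read 6.198, 4.77 and 4.87 CPM in JNKKO control and 2.18, 1.44 and 1.96 with dimerizer, against 0.952, 0.613 and 1.04 CPM in WT control and 6.67, 6.83 and 6.74 with dimerizer. GPNMB differed by -0.07 (adjusted p = 0.866) in JNKKO and rose by 3.37 in WT, from 72.0, 62.9 and 68.3 CPM to 692, 653 and 757.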

How the results depend on the processing

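Leaving out each library of the compared groups in turn gave 5968 to 6309 genes past the threshold, 3390 to 3594 higher and 2575 to 2715 lower, with 888 to 951 at 2-fold, a fall in mitochondrial share of -1.81 to -1.68 percentage points, and 6621 to 7146 genes for the interaction, 3325 to 3555 higher and 3296 to 3591 lower. With limma on log2(TPM + 1), filtered or not, 292 genes passed at 2-fold, since the added 1 shrinks low genes. The interaction gave 2078 higher genes on log2(TPM + 1), 2030 on log2(TPM + 0.1) and 1891 without a filter. The cause was not tested. The mitochondrial share of TPM differed by -3.37 percentage points. Of the named genes that passed 5 turned direction, namely BMPR2, a BMP receptor gene, from 0.16 to -0.0145 on log2(TPM + 1), filtered or not, and to -0.0164 on log2(TPM + 0.1), and, with the lymphocyte term, BMP7 to 0.1636, HLA-DPA1 to 0.1442, CD79B to 0.0346 and IGKC to 0.1955. With the replicate number as a block, which did not pair the samples, 6823 genes passed (3813 higher, 3010 lower), and 3592 higher and 3591 lower for the interaction, and the block in the 6 JNKKO libraries alone gave 6001. The lymphocyte term also moved semaphorin genes that fell from 11 to 7. The majority of cytokines (7 higher, 5 lower) turned in the 6 JNKKO libraries alone, to 6 and 7. Depth limits genes under about 1 CPM.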
